A study of Drosophila melanogaster with 8 samples.

Results

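The I-element and the R1/R2-type elements are non-LTR retrotransposons (LINEs), which copy themselves through an RNA that is reverse transcribed at the target site. The 6 elements described here are the I-element, R1A1-element, R2-element, Rt1a, Rt1b and Rt1c, taken by name from the transposon entries of the total RNA table. All 6 names were found, each as 1 entry, among 17004 genes and transposons and among 121 listed transposons that carry no prefix of another species.

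The libraries were made from dissected ovaries of Drosophila melanogaster kept at 25 °C. Total RNA was sequenced in 2 libraries of wild-type Oregon-R flies, a common laboratory strain, and in 1 library each of the egt17 and egt8 mutants, both labelled as null for egt. Small RNA was sequenced in another 4 libraries of the same design. The series title names the mutated gene boot, which is taken here to be Boot, a germline factor that helps the receptor Nxf3 export transcripts of piRNA clusters from the nucleus. The labels give no age, no number of animals and no strain background for the mutants, so the allele and its background cannot be told apart. The p-values rest on library-to-library spread alone, which limma moderates toward the spread of all features tested. Within wild type this spread can be technical, since nothing says that the 2 libraries came from separate cultures. Within the null group it also holds any difference between the 2 alleles. The 2 alleles serve as the 2 samples of the null group, and each allele is 1 library.

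The I-element is the germline LINE of the I-R system of hybrid dysgenesis, in which daughters lay eggs that fail to hatch when the element comes from the father and the mother lacks its silencing small RNAs. It is expressed in the female germline and is held down by maternally inherited piRNAs, the small RNAs that guide Piwi proteins to transposon transcripts. R1 and R2 elements instead insert at fixed sites within the 28S ribosomal RNA genes, and their RNA is known mainly as part of a transcript that starts in the ribosomal unit. The Rt1 elements belong to the same clade as R1 by their reverse transcriptase.

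Levels are FPKM, the number of fragments per kilobase of sequence scaled to library depth, so elements of different length can be compared. The values were whole multiples of 1 read, which gave both the depth of each library and the number of reads behind each level. Depth was 6320223 reads in wild type 1, 16615907 in wild type 2, 6147564 in egt17 and 15928896 in egt8. Intervals below are 95% exact Poisson or binomial intervals and cover counting error only.

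Both mutants had more I-element RNA than either wild type. The level was 1.24 FPKM in wild type 1 (42 reads), 1.75 FPKM in wild type 2 (156 reads), 4.60 FPKM in egt17 (152 reads) and 18.7 FPKM in egt8 (1601 reads). The wild-type libraries were close to each other, and egt8 stood above egt17, so the mutants differed among themselves more than the wild types did. The group means were 1.49 ± 0.361 FPKM (SD, n = 2) in wild type and 11.7 ± 9.98 FPKM (SD, n = 2) in the mutants.

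The difference in log2(FPKM + 1) between the mutant and wild-type means was 2.08 ± 0.70 (SE, 2 against 2 libraries), higher in 2 of 2 mutants, with a limma unadjusted p of 0.0311 and an adjusted p of 0.9999 over 8214 genes and transposons. It thus did not pass the threshold of 0.05. The SE of 0.70 and the p rest on a spread that limma moderated toward that of all features kept. The SD of the I-element itself within groups was 0.92 on this scale. Limma called 0 of the 8214 (0.0%), and 177 had an unadjusted p under 0.05, of which 118 were higher and 59 lower in the mutants. With 1 library left out the same fit called 18 or 8 when wild type 1 or wild type 2 was dropped and 8 or 7 when egt17 or egt8 was dropped, and the I-element was in none of these. For 1 feature, an exact permutation of 2 against 2 libraries cannot give a two-sided p below 0.333, the value reached here. The log2 difference was 1.18 without egt8 and 2.99 without egt17.

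Each allele was then set against single wild-type libraries, which compares libraries and not genotypes. In depth-scaled reads, the I-element in egt17 was 3.72 times wild type 1 (interval 2.63 to 5.37) and 2.63 times wild type 2 (2.09 to 3.31). In egt8 it was 10.7 times wild type 2 (9.08 to 12.7) and 15.1 times wild type 1 (11.1 to 21.1). All these intervals lay above 1. Between the mutants, egt8 was 4.07 times egt17 (3.44 to 4.83), whereas wild type 2 was 1.41 times wild type 1 (0.999 to 2.04). Counting error therefore covers the gap between the wild-type libraries and does not cover the gap between the alleles. The alleles also differ in library pair, since egt17 was close in depth to wild type 1, as egt8 was to wild type 2. Over 8214 features the correlation of libraries was 0.965 in the egt17 pair and 0.946 in the egt8 pair. Within genotype it was lower (0.904 in wild type, 0.885 in the mutants). Allele and library pair thus cannot be told apart in this gap.

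**Figure D1:**
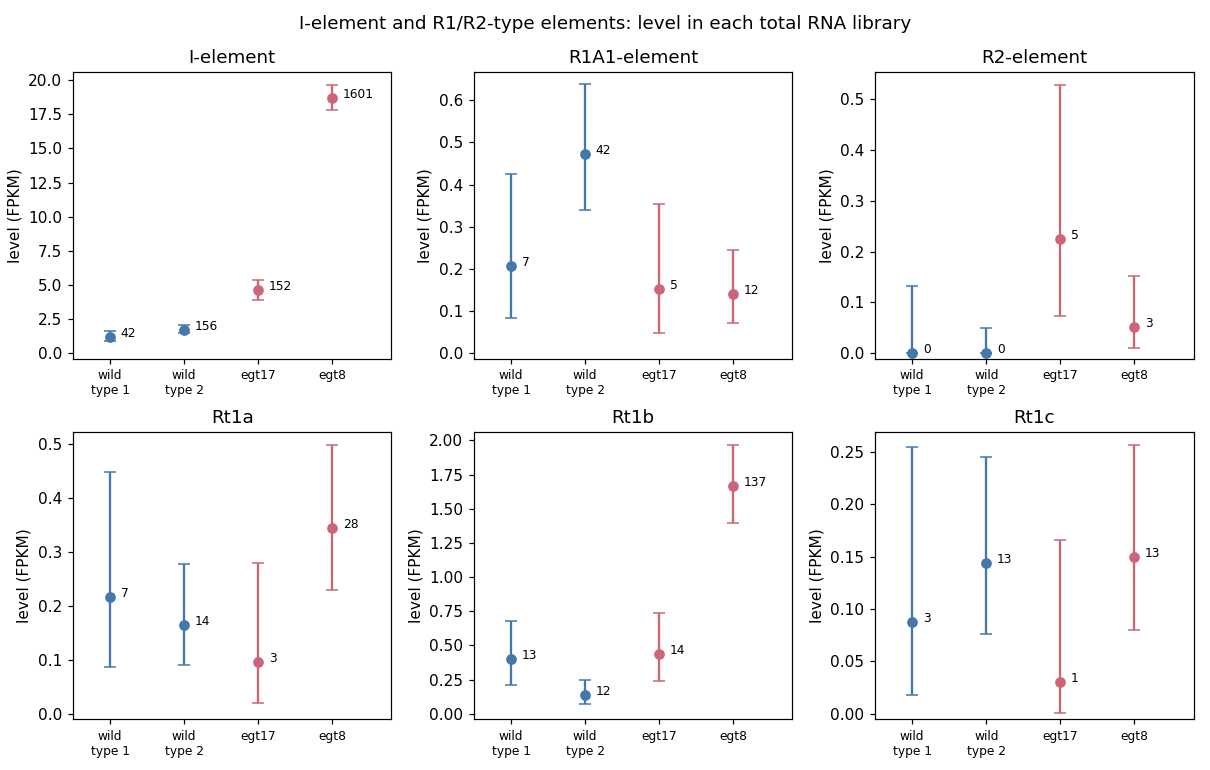
Level of each of the 6 elements in FPKM (vertical axis, a separate linear scale for each element) in the 2 wild-type libraries (blue) and in egt17 and egt8 (red), with the number of reads beside each point. Bars are 95% exact Poisson intervals, and at 0 reads the bar reaches the level of 3 reads; the I-element is set apart by 1601 reads in egt8, while most other points rest on 42 reads or fewer.

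The other 5 elements were low, and most of their values rested on few reads. They held 30 reads in all in wild type 1, 81 in wild type 2, 28 in egt17 and 193 in egt8. None reached 1 FPKM in 2 libraries, the level asked for the test, and only Rt1b in egt8 reached it in 1. They are therefore given as values. The I-element was above 1 FPKM in all 4 libraries, so its place in the test did not depend on the mutants. It made up 57.7% and 65.5% of the summed FPKM of the 6 elements in wild type 1 and wild type 2, 83.0% in egt17 and 88.8% in egt8.

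Of the 6 elements, 3 had both alleles above both wild types (I-element, R2-element and Rt1b), 1 was lower in both (R1A1-element), and 2 overlapped between the groups (Rt1a and Rt1c). Over the 12678 features with a read in any library, 12.3% were higher in both alleles and 8.98% lower. Over all 121 listed transposons, with a read or without, the shares were 42.1% and 4.13%. The I-element and its relatives thus sat in a class of transcripts of which many were higher in both mutants, and 3 of 6 is close to that class's own share.

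Rt1b was the most abundant of the R1-type elements in 3 of the 4 libraries. It was at 0.398 FPKM in wild type 1 (13 reads), 0.140 FPKM in wild type 2 (12 reads), 0.440 FPKM in egt17 (14 reads) and 1.66 FPKM in egt8 (137 reads). The egt8 library stood apart on the high side, and wild type 2 was the lowest. In depth-scaled reads, egt8 was 11.9 times wild type 2 (6.60 to 23.6) and 4.18 times wild type 1 (2.37 to 8.05). In egt17 the element was 1.11 times wild type 1 (0.483 to 2.56), an interval that spans 1, and 3.15 times wild type 2 (1.35 to 7.46). The wild types differed from each other by about as much, with wild type 2 at 0.351 times wild type 1 (0.146 to 0.835). The log2 difference over all 4 libraries was 0.63 ± 0.40 (SE of the limma fit with no filter, adjusted p = 1), and it was 0.19 without egt8.

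The ribosomal element R1A1 was the only one of the 6 that was lower in both alleles. Its level was 0.207 FPKM in wild type 1 (7 reads), 0.472 FPKM in wild type 2 (42 reads), 0.152 FPKM in egt17 (5 reads) and 0.141 FPKM in egt8 (12 reads). Wild type 2 was the high library, and the other 3 were within each other's intervals. The ratio of egt8 to wild type 2 was 0.298 (0.143 to 0.577), and that of egt17 to wild type 2 was 0.322 (0.0994 to 0.812). Against wild type 1 the ratios were 0.680 (0.247 to 2.04) in egt8 and 0.734 (0.184 to 2.69) in egt17. The lower level was thus detectable in both alleles against wild type 2 and in neither against wild type 1, and wild type 2 was itself 2.28 times wild type 1 (1.02 to 6.02). The log2 difference was -0.22 ± 0.12 (SE of the limma fit with no filter, adjusted p = 1) and -0.07 without wild type 2.

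R2-element reads were found in both mutants and in neither wild type, at very few reads. It was at 0 reads in both wild types, which allows up to 0.132 FPKM in wild type 1 and 0.0501 FPKM in wild type 2 (the level of 3 reads). It was at 0.225 FPKM in egt17 (5 reads, interval 0.0732 to 0.526 FPKM) and 0.0522 FPKM in egt8 (3 reads, 0.0108 to 0.153 FPKM). The egt17 interval lay above the limit of wild type 2 but reached below that of wild type 1, and the egt8 interval reached below both. A difference in egt8 was therefore not detectable at this depth, and one in egt17 was detectable against wild type 2 only. Unlike the I-element and Rt1b, R2 was higher in egt17 than in egt8, with egt8 at 0.232 times egt17 (0.0360 to 1.19), an interval that reaches 1.

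Rt1a and Rt1c did not separate the groups. Rt1a was at 0.217 FPKM in wild type 1 (7 reads), 0.165 FPKM in wild type 2 (14 reads), 0.0955 FPKM in egt17 (3 reads) and 0.344 FPKM in egt8 (28 reads). Its egt8 level was 2.09 times wild type 2 (1.06 to 4.29) and 1.59 times wild type 1 (0.677 to 4.30), and egt17 was 0.441 times wild type 1 (0.0735 to 1.93) and 0.579 times wild type 2 (0.107 to 2.08). Rt1c was at 0.0872 FPKM in wild type 1 (3 reads), 0.144 FPKM in wild type 2 (13 reads), 0.0299 FPKM in egt17 (1 read) and 0.150 FPKM in egt8 (13 reads). The egt8 and wild type 2 libraries held the same number of Rt1c reads, a ratio of 1.04 (0.446 to 2.44), and every other ratio of a mutant to a wild type for Rt1c had an interval that spans 1. For both elements the log2 difference, 0.03 for Rt1a and -0.04 for Rt1c, was smaller than the SD within groups, 0.15 and 0.09.

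**Figure D2:**
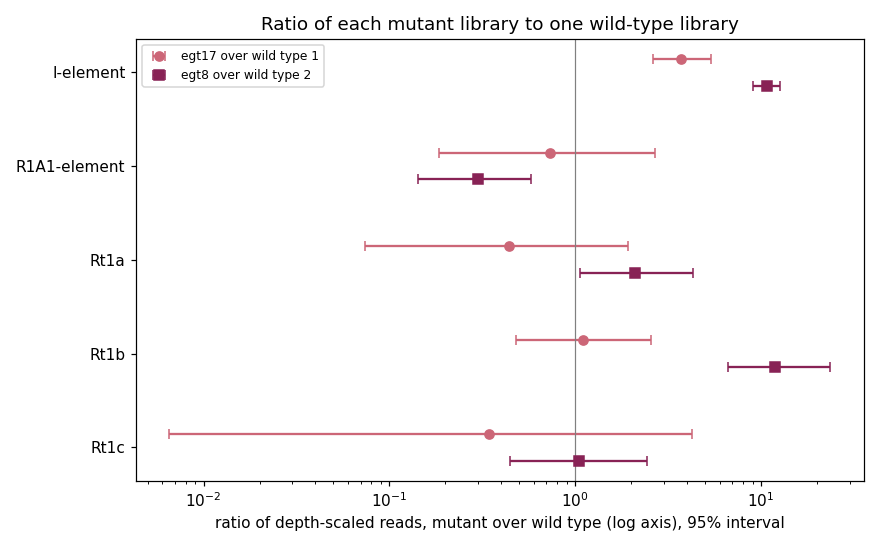
Ratio of depth-scaled reads (horizontal log axis) for egt17 over wild type 1 (circles) and egt8 over wild type 2 (squares), with 95% exact binomial intervals for counting error only; the grey line marks 1 and R2-element is left out because it had 0 wild-type reads. Both intervals lie above 1 for the I-element, whereas Rt1b and Rt1a lie above 1 in egt8 only and R1A1-element lies below 1 in egt8 only, for these 2 pairs of libraries.

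The order of levels was led by the I-element in every library, at 3.11 times the next element in wild type 1 and 3.70 times in wild type 2, and at 10.5 times in egt17 and 11.3 times in egt8. The next element was Rt1b in wild type 1 and in both mutants, and R1A1-element in wild type 2. Below the first place, in wild type 1 the intervals of Rt1b, Rt1a, R1A1-element and Rt1c overlapped. In egt17 Rt1b (0.241 to 0.739 FPKM) stood clear of the lowest, Rt1c (0.000757 to 0.167 FPKM), and each of the 5 overlapped with its neighbours in the order. In wild type 2 R1A1-element (0.340 to 0.638 FPKM) stood clear of Rt1a (0.0902 to 0.277 FPKM), and Rt1a, Rt1c and Rt1b overlapped. In egt8 Rt1b (1.40 to 1.97 FPKM) stood clear of Rt1a (0.229 to 0.497 FPKM), and Rt1a and Rt1c (0.0798 to 0.256 FPKM) overlapped.

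Among the 121 listed transposons the I-element ranked 15 by FPKM in both wild types, 18 in egt17 and 13 in egt8. Its share of their summed FPKM was 1.34% in wild type 1, 0.938% in wild type 2, 0.718% in egt17 and 1.17% in egt8. The place of the I-element among transposons was thus similar in all 4 libraries, while its level was higher in the mutants. By size of the log2 difference it was number 13 of the 121 listed transposons and number 35 of all 8214 features kept. The median log2 difference with no filter was 0.29 over all 121 transposons, with a read or without, and 0.01 over the 12678 features with a read.

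**Figure D3:**
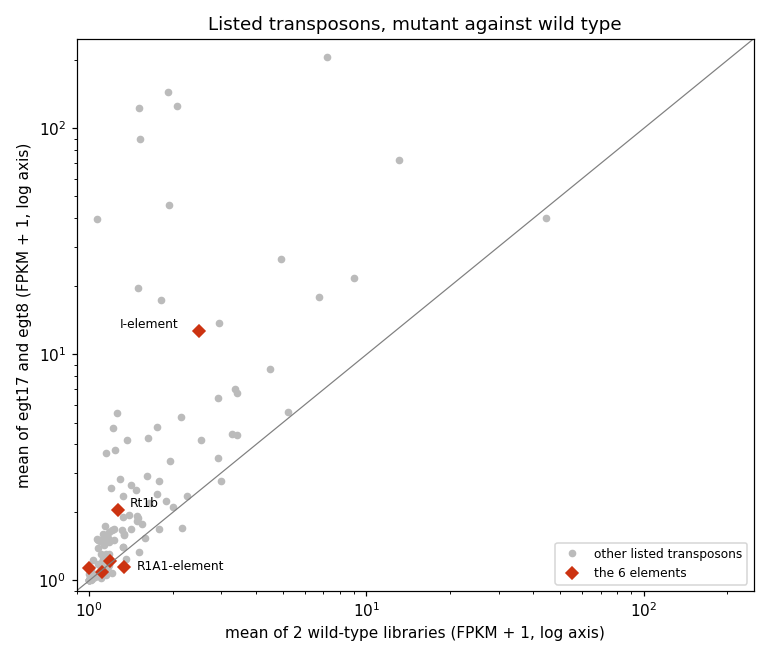
Mean level of each of the 121 listed transposons in egt17 and egt8 (vertical) against the mean of the 2 wild-type libraries (horizontal), both as FPKM + 1 on log axes, with the line of equality. The 6 elements are red diamonds: the I-element (1.49 against 11.7 FPKM) lies well above the line, Rt1b (0.269 against 1.05 FPKM) above it and R1A1-element (0.339 against 0.146 FPKM) below it, and the unlabelled R2-element, Rt1a and Rt1c lie near the origin.

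Other LINEs were read as a list for comparison. Of 37 listed names, 26 were in the table. With no filter, 9 of the 26 (34.6%) were higher in both alleles (HeT-A, Juan, jockey, G5, G5A, G6, BS, Ivk and baggins), 1 was lower (Fw3) and 16 overlapped, a share close to the 42.1% of all listed transposons that were higher. Their median log2 difference was 0.24 with no filter, and 1.06 over those that passed the filter of the test. The I-element, at 2.08, was below HeT-A (5.81) and Juan (2.24) and above the rest of the list. Only 10 passed the filter, some of them through the mutants alone, and limma called 0 of these. HeT-A, a LINE that maintains the chromosome ends, was at 0.858 and 1.30 FPKM in the wild-type libraries against 75.7 FPKM (egt17) and 174 FPKM (egt8), with a limma adjusted p of 0.296. Juan, a jockey-clade LINE, was at 1.31 and 2.56 FPKM in the wild-type libraries against 10.02 FPKM (egt17) and 15.7 FPKM (egt8), without the gap between alleles seen for the I-element. The F-element, at 0.773 and 1.52 FPKM in the wild-type libraries against 1.24 FPKM (egt17) and 7.39 FPKM (egt8), was high in egt8 alone, as Rt1b was. Doc, at 2.21 and 6.23 FPKM in the wild-type libraries against 2.27 FPKM (egt17) and 6.84 FPKM (egt8), followed the wild-type libraries.

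The 3 features with a profile most like the I-element over the 4 libraries were all transposons. Likeness was the Euclidean distance between log2(FPKM + 1) profiles, each centred on its own mean, over the 8214 features kept. The nearest was the LTR element Max-element (distance 0.24), at 2.92 and 4.91 FPKM in the wild-type libraries against 9.83 FPKM (egt17) and 41.2 FPKM (egt8). McClintock, another LTR element, followed (0.35), at 0.0981 and 0.420 FPKM in the wild-type libraries against 2.09 FPKM (egt17) and 6.87 FPKM (egt8). McClintock passed the filter through the mutants alone, and its wild-type levels were below the 1 added before taking logs. The third was the entry for the telomeric LINE TART of Drosophila yakuba (0.37), at 0.468 and 1.05 FPKM in the wild-type libraries against 1.96 FPKM (egt17) and 12.5 FPKM (egt8). That entry bears the name of another species, and which copies gave its reads was not tested. Of the 10 nearest features, 7 were transposons, some of which passed the filter through the mutants alone. Of the 8214 features kept, 43 were listed transposons, and 27 of the 43 were higher in both alleles. The distances use the same 4 values as the I-element difference, so the count is a description and not a separate result.

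**Figure D4:**
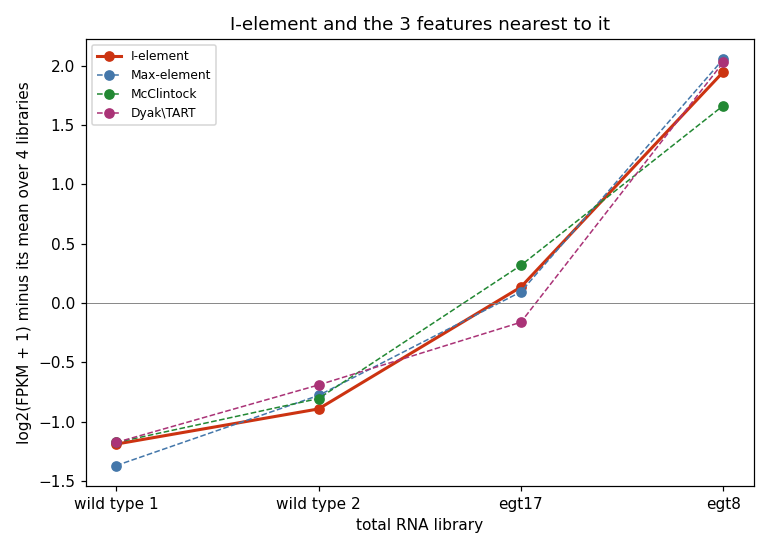
Level of the I-element (solid red) and of its 3 nearest features (dashed) in the 4 total RNA libraries, as log2(FPKM + 1) minus the mean of each over the libraries. All 4 are lowest in wild type 1, higher in egt17 than in either wild type, and highest in egt8.

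Boot RNA, the first check of the labels, was at 88.6 and 89.7 FPKM in the wild-type libraries against 40.6 FPKM (egt17) and 52.1 FPKM (egt8), lower in both mutants but far from 0 (limma adjusted p = 0.9999). Of 28 symbols in a list of piRNA pathway genes 27 were found and tested, and limma called 0. In both alleles 1 (3.70%) was higher and 5 (18.5%) were lower, where 9.82% of all features kept were higher and 11.1% lower, and 21 overlapped. The median log2 difference was -0.13, against -0.04 over all features kept. With so few genes these counts are given as a description and not as a result about the list. The 1 was aub, a Piwi protein of the germline that cuts transposon RNA (38.7 and 48.2 FPKM in the wild-type libraries against 50.6 FPKM (egt17) and 61.9 FPKM (egt8)). The 5 were Boot, moon (a transcription factor of piRNA clusters), Gasz (a mitochondrial scaffold of piRNA processing), egg (a histone H3 lysine methyltransferase) and mael. Of these mael, a factor of transcriptional silencing by Piwi, was at 74.4 and 68.8 FPKM in the wild-type libraries against 55.9 FPKM (egt17) and 46.3 FPKM (egt8).

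For R1 and R2, the genes of ribosomal RNA synthesis were read as a list. All 19 found genes for RNA polymerase I and nucleolar factors were tested and limma called 0. In both alleles 4 (21.1%) were higher and 1 (5.26%) was lower, beside the 9.82% and 11.1% of all features kept, and 14 overlapped. The median log2 difference was 0.29, and these counts too are a description. Fib, the methyltransferase fibrillarin, was at 263 and 156 FPKM in the wild-type libraries against 379 FPKM (egt17) and 301 FPKM (egt8). Polr1A, the largest subunit of RNA polymerase I, was at 32.1 and 27.5 FPKM in the wild-type libraries against 50.5 FPKM (egt17) and 40.8 FPKM (egt8). Fib and Polr1A were both among the 4 higher genes. TAF1B, the 1 lower gene, was at 28.8 and 28.6 FPKM in the wild-type libraries against 25.2 FPKM (egt17) and 20.6 FPKM (egt8). Between single libraries the list median was 0.48 for egt17 against wild type 1 and -0.01 for egt8 against wild type 2. R2 was at its highest in egt17 too, but on 5 reads there and 3 in egt8. The interval of egt8 over egt17 for R2 (0.0360 to 1.19) reached 1, so the alleles were not separated. The part of these genes in the level of R2 was not tested.

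Markers of other cell types differed between the libraries. The summed FPKM of 19 muscle genes was 407 and 278 in wild type, 221 in egt17 and 738 in egt8, with none at 0 in all libraries. For 10 hemocyte genes the sums were 162 and 177 in wild type, 160 in egt17 and 307 in egt8, with He at 0 throughout. The 14 follicle cell genes summed to 1425 and 1135 FPKM in wild type, 899 in egt17 and 1848 in egt8. The 12 fat body genes summed to 197 and 383 FPKM in wild type, 182 in egt17 and 399 in egt8. The 11 germline genes, which mark the cells known to express the I-element, summed to 1349 and 1917 FPKM in wild type, 1926 in egt17 and 1947 in egt8. One gene made up much of some sums. Of the germline genes, pgc alone was at 597 and 430 FPKM in wild type, 1040 in egt17 and 409 in egt8. The other 10 germline genes summed to 752 and 1487 FPKM in wild type, 885 in egt17 and 1538 in egt8. Without Yp1, a yolk protein gene, the other 13 follicle cell genes summed to 62.3 and 110 FPKM in wild type, 82.2 in egt17 and 170 in egt8. Without Lsd-2, a lipid droplet protein gene, the other 11 fat body genes summed to 58.0 and 110 FPKM in wild type, 50.02 in egt17 and 132 in egt8. Without crq, a scavenger receptor gene, the other 9 hemocyte genes summed to 85.4 and 73.04 FPKM in wild type, 83.9 in egt17 and 234 in egt8. All 5 sums, with or without the highest gene of each list, were highest in egt8, as the I-element, Rt1b and Rt1a were. For germline and fat body genes egt8 was close to its paired wild-type library, at 1947 against 1917 FPKM and 399 against 383 FPKM. The muscle, hemocyte and follicle cell sums were further above it. Without the highest gene, germline, fat body and follicle cell sums were higher in both libraries of this pair than in either of the other pair. The part of these lists in the levels of the elements was not tested. In such bulk RNA fewer cells of a type and less RNA per cell cannot be told apart.

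Small RNA values were deposited per piRNA cluster and not per element, so none can be assigned to the I-element or to R1 or R2. No unit was named, and the values were taken here as RPKM (reads per kilobase, scaled to depth). Depth in small RNA ran from 5989257 reads (egt8) to 22901380 (egt17). The large germline cluster at 42AB (2R, 6256843 to 6499214 in the authors' coordinates, with dm6 the build they name), a known source of piRNAs against many transposons, was at 110 and 154 RPKM in the wild-type libraries against 23.2 RPKM (egt17) and 92.2 RPKM (egt8). Its log2 difference was -1.47 ± 0.44 (SE, lower in 2 of 2 mutants). This SE was pooled and the same for all 92 clusters, so it is not the spread of 42AB itself. The cluster fell by the limma test over the 92 (adjusted p = 0.00872), in which 20 (21.7%) passed, 15 lower and 5 higher. Of the 92, 49 were lower in both mutants and 11 higher, and the median log2 difference was -0.51. The 42AB difference was -0.49 without egt17 and -2.44 without egt8, -1.70 without wild type 1 and -1.23 without wild type 2. The call for 42AB was lost without wild type 1 (adjusted p = 0.0985), wild type 2 (0.319) or egt17 (limma adjusted p = 0.540). Dropping wild type 1 left 6 clusters past the threshold, dropping wild type 2 left 2, dropping egt17 left 12 and dropping egt8 gave 46. Of the mutants, egt17 had the lower 42AB level and egt8 the higher I-element level. A relation between these levels was not tested, and each rests on 1 library per allele.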

How the data were processed

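The authors deposited FPKM with 1 added for total RNA, per the file headers and the lowest value of exactly 1 in every library; 1 was subtracted. They deposited 1 value per small RNA cluster with no named unit, taken here as RPKM because its steps were whole reads. Bowtie2 2.2.4 and dm6 are named in the submitters' processing notes without a role; the counting tool, the use of strand, RNA selection and the handling of reads with several matches are not given in the sources used. Reads shared by near-identical elements could thus go to either.

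Transcripts of a gene were summed by symbol (34925 of 35327 transcript rows matched the RefSeq gene table, assembly Release 6). Depth came from the commonest single-read value of genes with 1 transcript. The reads of an element are those at the smallest length from 100 to 15000 bases that made its 4 values whole within 0.02; for the I-element (5371 bases) the largest deviation was 2.24e-07, and all 118 transposon rows with 2 or more values above 0 gave such a length. A multiple of that length would serve too, so reads are the smallest numbers the values allow.

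Features with at least 1 FPKM in at least 2 libraries were kept. Log2(FPKM + 1) was tested with limma 3.58.1 in R 4.3.3 (mean-variance trend, two-sided, Benjamini-Hochberg adjusted over all features kept). Each feature had 2 residual degrees of freedom. Its spread was moderated with 3.03 prior degrees of freedom taken from all features kept. FPKM admits no count model here. Clusters whose mean RPKM was 1 or more were tested on log2(RPKM + 1) without a trend, and all were given the same spread; the fit was meant for clusters that overlap copies of the elements, but no annotation of copies was used here, so only 42AB is named, for its known role. The fit was run on simulated data with small independent noise and large differences. Such a run checks the code and not the power of the fit on these data. Differences on this scale understate changes of low elements.

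Named features were the 6 elements, Boot, members of the lists, and the 3 features nearest to the I-element. The elements and lists were chosen with earlier results of these data known. Alternatives covered the pseudocount, filter, scaling, row sums, trend, a library pair term and each library left out. Python 3.11.15 with pandas 2.3.3, numpy 2.4.6 and scipy 1.17.1 handled the tables, and figures drawn with matplotlib 3.10.9. No nucleotide sequences of the elements were used here.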

Additional observations from a re-analysis of the deposited data

Results flagged for a closer look

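Rt1a stood under both wild types in egt17 (0.0955 FPKM, 3 reads) and above both in egt8 (0.344 FPKM, 28 reads). Rt1c did the same, at 0.0299 FPKM in egt17 (1 read) and 0.150 FPKM in egt8 (13 reads), beside 13 reads in wild type 2. Each allele is 1 library, so neither difference between alleles was tested. The entry for the I-element of Drosophila teissieri, which no comparison above used, held 1 read in each mutant library (0.0302 FPKM in egt17, 0.0117 FPKM in egt8), with 0 reads in both wild types. The entries for R1-type elements of other species (R1B, R1A2 and R1A3) were at 0 reads in all 4 libraries.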

How the results depend on the processing

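The I-element was higher in the mutants under all 11 alternatives that could be run, with log2 differences from 1.18 to 2.99 and limma adjusted p from 0.212 to 1; at a filter of 5 FPKM it was not tested. The adjusted p of 0.212 came with the library pair as a replicate block (egt17 with wild type 1 and egt8 with wild type 2, 1 residual degree of freedom), a fit that called 13 features and none of the 6 elements; 6 of the 13 were listed transposons, among them HeT-A of the other LINEs (adjusted p = 0.00346). These pairs are known from depth and from the data, not the labels: deviations from the group means correlated at 0.739 over 8214 features. Leaving out 1 library called 7 to 18 features, on a spread pooled over features with a lone library in 1 group. With a pseudocount of 0.1 the differences were -0.77 for R1A1-element, 1.15 for R2-element, 1.50 for Rt1b and -0.25 for Rt1c; with 0.5 that of R2-element was 0.34. Without 1 library they ranged from -0.36 to -0.07 for R1A1-element, 0.073 to 0.29 for R2-element, -0.12 to 0.17 for Rt1a, 0.19 to 1.08 for Rt1b and -0.11 to 0.04 for Rt1c. Clusters past the threshold were 13 with a pseudocount of 0.1, 33 with the replicate block and 2 to 46 without 1 library. The cause of these changes was not tested. Depth limits every element but the I-element, since in the shallower libraries the other 5 held 30 and 28 reads in all.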

Other observations

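R1-2, an R1-type entry of the studied species outside the 6 elements, was at 0 reads in wild type 1 and egt17, 1 read in wild type 2 (0.0374 FPKM) and 4 reads in egt8 (0.156 FPKM).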
